A study of Mus musculus with 4 samples.

Results

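The Hippo pathway genes described here are 10 genes of the mouse: Tead1, Tead2, Tead3, Tead4, Yap1, Wwtr1, Lats1, Lats2, Vgll4 and Amotl2. They were chosen by name, and selected on the overlap of both peak lists at these genes in earlier results of these data, so their own counts below are a description. Every peak within 1 kb of a listed gene was given to it, and so was any other peak whose nearest protein-coding gene end, within 100 kb, belonged to it. This gave 57 of the 44139 peaks in the Gata2cKO list and 67 of the 49394 peaks in the Gata2WT list. The lists came from ATAC-seq, an assay of open chromatin that uses the Tn5 transposase to tag accessible DNA.

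The cells were germ cells of female ovaries at E14.5 (embryonic day), enriched with beads against the surface antigen SSEA1, from C57BL/6J mice. Gata2cKO embryos came from a cross of Gata2flox/+ Prdm1-Cre males with Gata2flox/flox females, in which Prdm1 regulatory sequence drives Cre from early in the germ line. Gata2WT embryos came from the same cross, in which every embryo receives a floxed allele from its mother; the labels do not say whether they carried Cre. Each genotype had 2 samples of about 10000 cells, and the authors' combined peak list of each genotype was analysed, so there is no replicate error, no test between genotypes and no p-value.

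The Hippo pathway is a kinase cascade that limits organ growth. The kinases LATS1 and LATS2 phosphorylate the coactivators YAP1 and TAZ (the product of Wwtr1) and hold them in the cytoplasm; when the kinases are off, both coactivators enter the nucleus and act through the DNA-binding TEAD factors. VGLL4 competes with them for TEADs, and AMOTL2 binds and retains YAP1 and is itself made from a known YAP and TEAD target gene.

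A peak's −log10 q is its strength in its own list, as the authors' peak caller gave it, and the summit pileup is the number of fragments at its highest point. Neither was scaled between the lists, so values of both genotypes stand side by side and show no change by themselves. The lowest local background was 2.01 fragments in the Gata2cKO list and 2.19 in the Gata2WT list, and the median summit pileup was 19 in both. A site with no peak stayed under the threshold of the peak caller and need not be closed, and a weaker site cannot be told apart from fewer cells with an open site. Of the germ cell markers, 9 of 10 carried a peak at a gene end in each list, the exception being Nanos3 with one in neither. Among 9 markers of ovarian supporting and stromal cells, 5 had one in both, Amhr2 and Nr2f2 in Gata2WT alone, and Gata4 and Nr5a1 in neither. No gene-end peak was listed for any of 4 macrophage markers, nor for the endothelial markers Cdh5 and Emcn or the globin genes Hbb-bt and Hba-a1. Endothelial Pecam1, Kdr and Tek and erythroid Klf1 had one in both lists.

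Start sites of 8 of the 10 genes were in the RefSeq promoter table (GRCm38.p6), with 12 windows of 250 bases before to 50 after a start; Tead1 and Tead4 were not matched. Of these windows, 11 met a Gata2cKO peak and 10 a Gata2WT peak, where 44.4% and 45.5% of the 32619 windows on the autosomes and X did so. The core word bound by TEAD factors, GGAATG or, read on the other strand, CATTCC, stood in at least 1 window of 6 of the 8 genes, against 12.1% of the 12140 genes that had a window with a peak in both lists. The genes were Yap1, Wwtr1, Lats2, Vgll4, Amotl2 and Tead3. The core word of GATA factors was searched only as GATAA or, read on the other strand, TTATC. In that form it stood in none of the 12 windows, while 14.9% of the same 12140 genes held it. The form that ends in G, GATAG, was not searched, so the count leaves it out. The letters GATAG stood just after the TEAD word in the windows of Wwtr1. The windows of the listed genes held from 4 CG, at the inner start of Lats2, to 49 CG, at Yap1, with a median of 26.5, against a median of 22 in all windows with a peak in both lists and 7 in all windows. These are matches of letters and not tested sites, and windows of 1 gene overlap at Wwtr1 and Tead3. Genes with more windows have more places for a word, and the listed genes had 12 windows over 8 genes. Counted by window with a peak in both lists, the TEAD word stood in 7 of 10, against 11.1% of 14013. Amotl2 is a known TEAD target, so its match is not independent of the word. The other genes with the word were not checked for this, so their matches need not be independent either.

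The 250 bases before a start are shown for 5 genes in which the TEAD word falls there. Each is read on the strand of its gene, and capitals mark the word on either strand. The window of Yap1 is chr9:8004597-8004846 (minus strand), that of Wwtr1 chr3:57575911-57576160 (minus), that of Vgll4 chr6:114969204-114969453 (minus), that of Amotl2 chr9:102717554-102717803 (plus) and that of Tead3 chr17:28350806-28351055 (minus).
Yap1: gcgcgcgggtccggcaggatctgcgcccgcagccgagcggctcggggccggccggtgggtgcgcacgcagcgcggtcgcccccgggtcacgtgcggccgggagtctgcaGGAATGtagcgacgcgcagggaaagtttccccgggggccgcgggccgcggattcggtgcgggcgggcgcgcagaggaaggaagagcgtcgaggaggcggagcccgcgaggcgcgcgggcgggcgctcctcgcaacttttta
Wwtr1: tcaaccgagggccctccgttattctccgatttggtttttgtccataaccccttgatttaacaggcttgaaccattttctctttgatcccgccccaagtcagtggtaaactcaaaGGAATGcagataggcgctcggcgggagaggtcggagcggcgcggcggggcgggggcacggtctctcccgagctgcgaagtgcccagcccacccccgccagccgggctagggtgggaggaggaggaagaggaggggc
Vgll4: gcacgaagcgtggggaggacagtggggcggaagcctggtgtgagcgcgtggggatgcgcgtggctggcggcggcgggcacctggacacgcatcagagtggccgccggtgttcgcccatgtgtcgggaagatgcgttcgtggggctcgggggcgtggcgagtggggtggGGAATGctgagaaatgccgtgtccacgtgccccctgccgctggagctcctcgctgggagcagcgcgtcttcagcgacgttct
Amotl2: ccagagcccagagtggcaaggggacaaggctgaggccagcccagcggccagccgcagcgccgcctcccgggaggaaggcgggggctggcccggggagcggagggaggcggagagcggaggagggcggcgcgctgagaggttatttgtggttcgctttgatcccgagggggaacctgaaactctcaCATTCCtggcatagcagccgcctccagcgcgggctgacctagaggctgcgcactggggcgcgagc
Tead3: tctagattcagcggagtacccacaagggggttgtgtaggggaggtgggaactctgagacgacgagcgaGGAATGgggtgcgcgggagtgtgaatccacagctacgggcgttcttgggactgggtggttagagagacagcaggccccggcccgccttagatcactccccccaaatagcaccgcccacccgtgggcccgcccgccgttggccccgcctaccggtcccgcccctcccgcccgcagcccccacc
Each of these 5 stretches lay at least partly in a shared peak. The Tead3 stretch shown was the outermost of its 3 windows.

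Each of the 10 genes had at least 1 gene-end peak in the Gata2cKO list and at least 1 in the Gata2WT list. Gene-end peaks are those within 1 kb of the first or the last base of a coding gene. The first base is the lowest coordinate of the gene, whatever its strand. Of all 21631 protein-coding genes, 62.8% had such a peak in each list, 1.3% in Gata2cKO alone and 2.29% in Gata2WT alone. The 12 Gata2cKO and 13 Gata2WT gene-end peaks of the listed genes were all shared, while 4.51% of all Gata2cKO and 7.17% of all Gata2WT gene-end peaks met no peak of the other list.

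**Figure D1:**
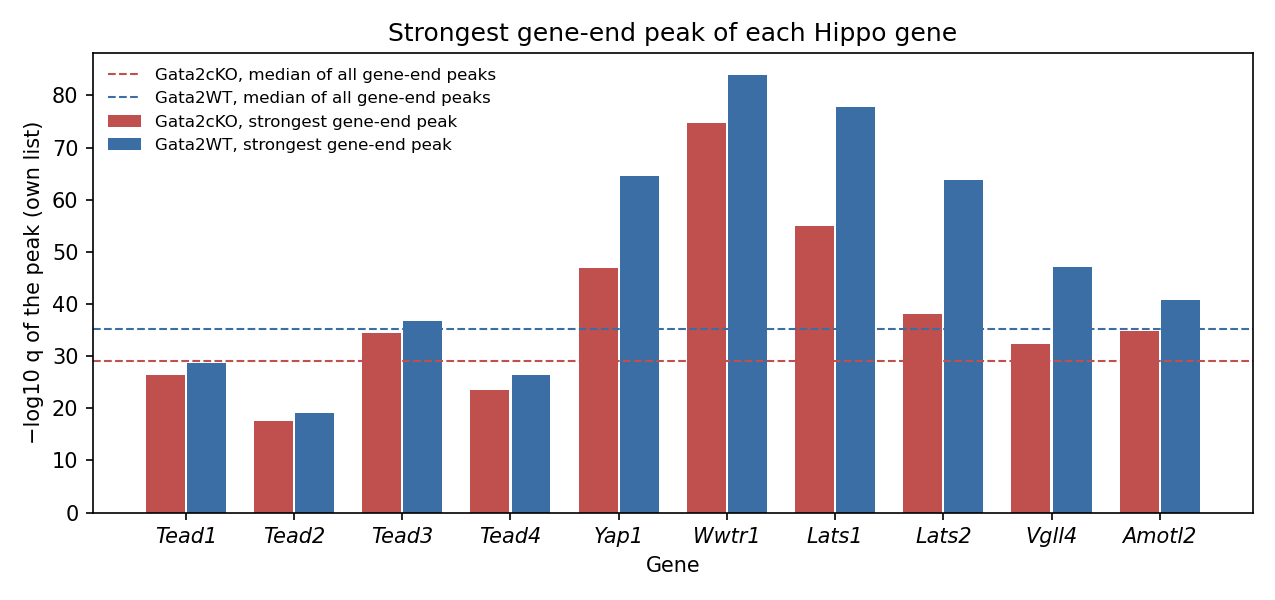
Strength of the strongest gene-end peak of each Hippo pathway gene, as the −log10 q within its own list, in Gata2cKO (red, left) and Gata2WT (blue, right); dashed lines mark the median of all gene-end peaks of each list. Wwtr1 stood highest in both lists, at 74.7 and 84.0, and Tead2 lowest, at 17.5 and 19.03; bars of the 2 colours are not on a common scale of depth.

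Of the coactivator genes, Wwtr1 had the strongest gene-end peak of the set. It lay on chromosome 3, 57574775 to 57576722 in Gata2cKO, and had a −log10 q of 74.7 with 124 fragments at its summit in Gata2cKO, against 84.0 and 145 in Gata2WT. It was stronger than 89.5% of all gene-end peaks in the Gata2cKO list and 85.9% in the Gata2WT list. That of Yap1, chromosome 9, 8003508 to 8005159 in Gata2cKO, had 47.0 and 89 fragments in Gata2cKO, against 64.5 and 113 in Gata2WT. Both peaks covered the whole RefSeq start windows.

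Both kinase genes had their strongest gene-end peak above the median of all gene-end peaks. At Lats1 it was stronger than 75.9% of these in Gata2cKO and 82.4% in Gata2WT, and at Lats2 than 59.5% and 73.3%. The gene-end peak of Lats1, chromosome 10, 7680742 to 7681918 in Gata2cKO, had a −log10 q of 55.1 in Gata2cKO and 77.7 in Gata2WT, and is shared with the neighbouring gene Pcmt1. That of Lats2, chromosome 14, 57745402 to 57746656 in Gata2cKO, had 38.01 in Gata2cKO and 63.8 in Gata2WT, and was also given to the gene Gm52140. At the other end of Lats1 a weak shared peak had a pileup of 14 fragments in Gata2cKO and 8 in Gata2WT.

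Among the TEAD genes the strongest gene-end peak had a −log10 q from 17.5 to 34.4 in Gata2cKO and from 19.03 to 36.7 in Gata2WT. The gene-end peak of Tead1, chromosome 7, 112678834 to 112680202 in Gata2cKO, had a −log10 q of 26.4 in Gata2cKO and 28.7 in Gata2WT, and that of Tead4, chromosome 6, 128299824 to 128301050, had 23.6 and 26.4. The strongest summits at the Tead1 end lay 786 bp apart between the lists, within a peak of 2 summits in each. The Tead1 and Tead4 peaks stood below the median of all gene-end peaks, which was 29.1 in Gata2cKO and 35.2 in Gata2WT. Tead3 had 34.4 in Gata2cKO and 36.7 in Gata2WT, at a peak also given to the gene Tulp1. Tead2 had a peak at its start with 11.2 in Gata2cKO and 9.20 in Gata2WT, and a stronger one at its other end with 17.5 and 19.03, which is also at an end of Cd37. The Tead2 start peak lay mostly downstream: it reached only 23 of the 300 bases of the start window in Gata2cKO and 13 in Gata2WT.

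The gene end of Tead3 was cut differently in the lists. In Gata2cKO it held 1 peak with 2 summits, chromosome 17, 28349882 to 28351372. In Gata2WT it held 2 peaks, 28349923 to 28350341 with a −log10 q of 8.19 and 28350895 to 28351297 with 36.7. The strongest summits of both lists lay 9 bp apart. One of the 3 start windows of Tead3 fell in the gap between the Gata2WT peaks.

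The inhibitors Vgll4 and Amotl2 had gene-end peaks near the middle of the range. Vgll4 had a −log10 q of 32.3 in Gata2cKO and 47.2 in Gata2WT, and Amotl2 had 34.8 and 40.8. The gene-end peaks of the 10 genes had a median width of 1430 bp in Gata2cKO and 1294 bp in Gata2WT, where it was 882 bp and 923 bp over all gene-end peaks.

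The single-list peaks of the set all lay away from gene ends, and Tead1 held 5 of the 11 in the Gata2cKO list and 13 of the 20 in the Gata2WT list. Peaks of one list with no overlapping peak in the other are called cKO-only and WT-only. Of the 57 Gata2cKO peaks, 11 were cKO-only (19.3%, 95% Wilson interval 11.1 to 31.3, counting error only), where 19.7% of all Gata2cKO peaks were. Of the 67 Gata2WT peaks, 20 were WT-only (29.9%, 20.2 to 41.7), where 28.5% of all Gata2WT peaks were. Away from gene ends, 11 of 45 Gata2cKO peaks and 20 of 54 Gata2WT peaks were single-list, where 26.8% of all such Gata2cKO and 37.2% of all such Gata2WT peaks were. The set as a whole therefore lay at the level of its lists. Without Tead1 the counts were 6 of 40 Gata2cKO peaks (15.0%, 7.06 to 29.1) and 7 of 42 Gata2WT peaks (16.7%, 8.32 to 30.6).

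**Figure D2:**
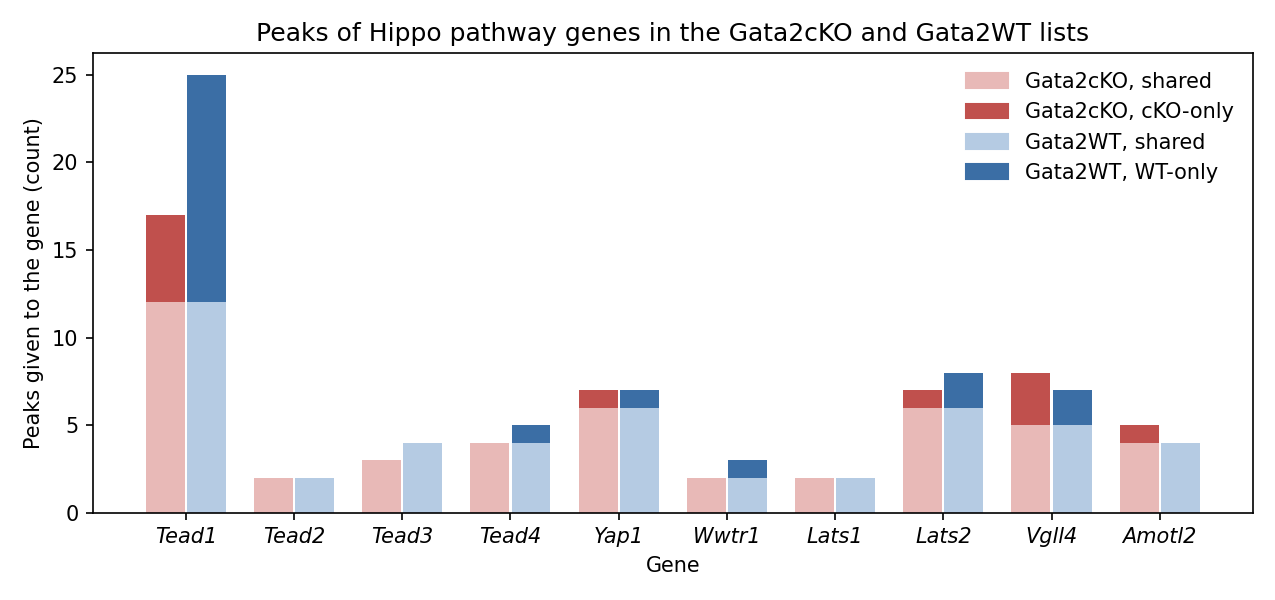
Number of peaks given to each Hippo pathway gene in the Gata2cKO (red, left) and Gata2WT (blue, right) lists, with shared peaks in pale and single-list peaks in full colour. Tead1 held 5 of the 11 cKO-only and 13 of the 20 WT-only peaks, and Tead2, Tead3 and Lats1 held none.

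Most single-list peaks had a −log10 q under 5, in the set and in the whole lists. Under a −log10 q of 2, 6 of 10 Gata2cKO peaks were cKO-only, where 59.7% of all Gata2cKO peaks of that strength were, and 5 of 7 Gata2WT peaks were WT-only, where 73.6% were. At 2 to 5, 4 of 15 Gata2cKO peaks were cKO-only, where 38.9% of all Gata2cKO peaks of that strength were, and 9 of 21 Gata2WT peaks were WT-only, where 52.5% were. At 5 to 10 the counts were 0 of 10 (12.5% of all) in Gata2cKO and 5 of 19 (20.5% of all) in Gata2WT. At 10 and over, 1 of 22 Gata2cKO peaks was cKO-only and 1 of 20 Gata2WT peaks was WT-only. Strong single-list peaks were rare over the whole lists, at 0.802% of Gata2cKO and 1.3% of Gata2WT peaks, and the 2 of this set, at Tead1 and Amotl2, are described below.

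**Figure D3:**
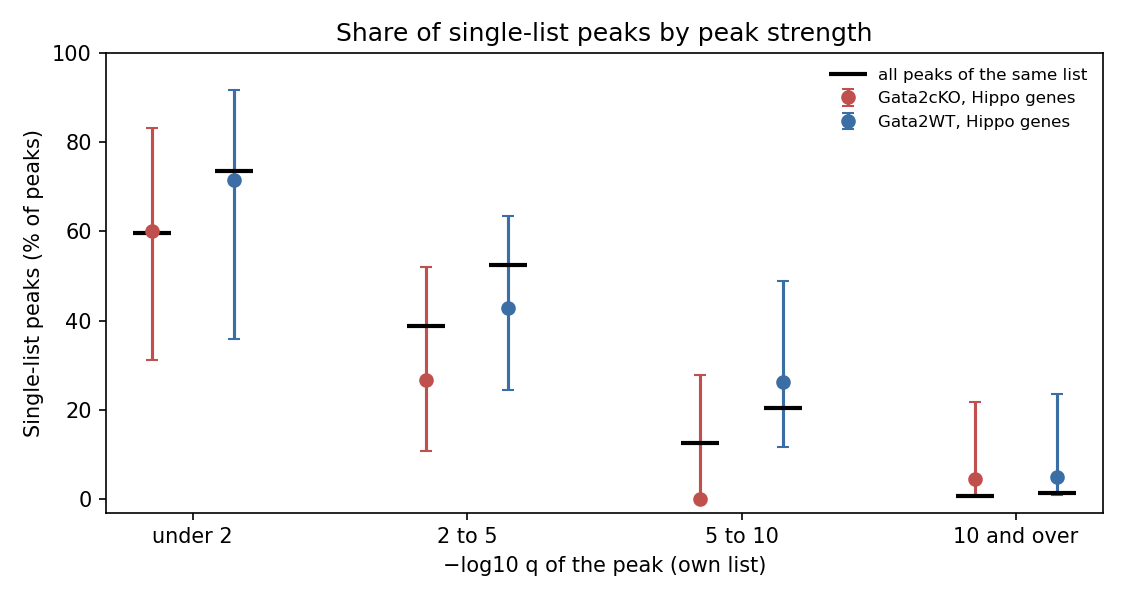
Share of single-list peaks (%) by −log10 q among the peaks of the Hippo pathway genes, in Gata2cKO (red, left) and Gata2WT (blue, right), with 95% Wilson intervals for counting error; black marks give the share over all peaks of the same list. In both lists the share of the set dropped from 60.0% and 71.4% under a −log10 q of 2 to 4.55% and 5% at 10 and over.

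Tead1, which encodes a TEAD factor, is the longest gene of the set at 227 kb and held 17 Gata2cKO and 25 Gata2WT peaks. Of these, 5 were cKO-only and 13 were WT-only (52.0%, 33.5 to 70.0). Each list had 12 shared peaks. In Gata2WT, 2 of 2 Tead1 peaks under a −log10 q of 2 were WT-only, where 73.6% of all peaks of that strength were. At 2 to 5 it was 7 of 13 (52.5% of all). At 5 to 10 it was 3 of 6 (20.5% of all), and at 10 and over 1 of 4 (1.3% of all). In Gata2cKO, 3 of 4 under 2 were cKO-only (59.7% of all) and 2 of 6 at 2 to 5 (38.9% of all). At 5 to 10 it was 0 of 4 (12.5%), and at 10 and over 0 of 3 (0.802%). Counting Tead1 itself, 124 protein-coding genes had at least 5 cKO-only peaks, and 7 had at least 13 WT-only peaks. Among the 990 genes of 200 kb or longer the median was 1 cKO-only and 2 WT-only peaks, and 24.6% of Gata2cKO and 36.3% of Gata2WT peaks given to them were single-list.

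The 5 cKO-only peaks of Tead1 all lay inside the gene, with −log10 q values from 1.25 to 4.95. The strongest, 112784249 to 112784712, lay 105 kb from the first base, with a pileup of 18 fragments. Of the 13 WT-only peaks, 9 lay inside the gene and 4 outside it. The strongest, 112794441 to 112795055, lay 115 kb from the first base with a −log10 q of 18.9, a fold enrichment of 7.81 and a pileup of 32 fragments on a local background of 3.22. Only 15 of the 14060 WT-only peaks of the whole list were at least as strong. The nearest Gata2cKO peak was 5.58 kb away. In the Gata2cKO list, peaks with a local background within 0.25 of the same level had pileups of 10 fragments or more, so a site with fewer would not be listed.

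Another 3 WT-only peaks of Tead1 had a −log10 q over 5. They lay inside the gene at 112702735 to 112703003 (5.22), outside it at 112676003 to 112676307 (5.73), 3.05 kb from the gene, and outside it at 112918581 to 112918839 (5.61), 11.8 kb from the gene. The remaining 9 had values from 1.37 to 4.82. Some single-list peaks of the 2 genotypes were near neighbours without touching: the WT-only peak at 112851388 to 112851865 lay 1.83 kb from the cKO-only peak at 112853699 to 112853975. Among the shared peaks inside Tead1, the strongest, 112743391 to 112744114 in Gata2cKO, had 15.6 in Gata2cKO and 23.4 in Gata2WT, with summits 12 bp apart.

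**Figure D4:**
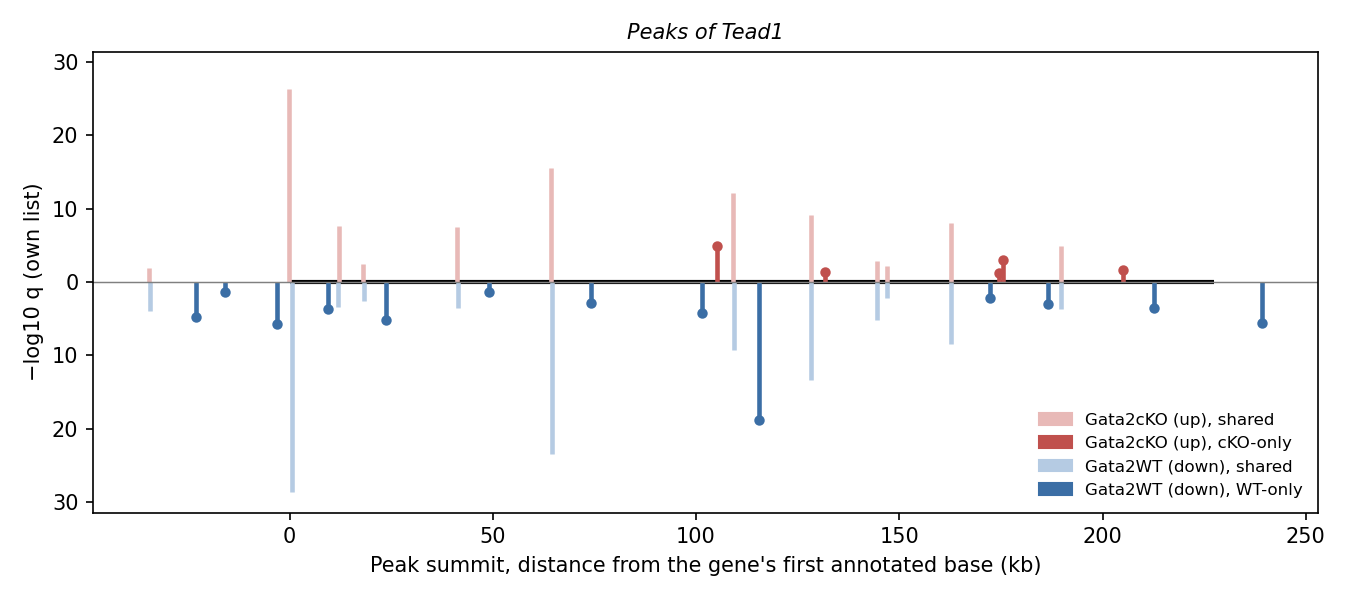
Peaks of Tead1 by distance of their summit from the first annotated base (kb) and −log10 q within their own list, Gata2cKO above and Gata2WT below the line; the black bar is the gene and dots mark single-list peaks. The strongest WT-only peak, at 115 kb with 18.9, has no cKO peak opposite, and cKO-only peaks lie between 105 and 205 kb.

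Amotl2 held the strongest cKO-only peak of the set. It lay inside the gene at 102726133 to 102726607 on chromosome 9, 9.31 kb from the first base, with a −log10 q of 11.7, a fold enrichment of 5.76 and a pileup of 26 fragments on a background of 3.69. Of 8710 cKO-only peaks in all, 75 were at least as strong. The nearest Gata2WT peak was 7.24 kb away, and Gata2WT peaks with a background within 0.25 of that level had pileups of 10 or more. Amotl2 had no WT-only peak. Its other distal peaks, at 26.4, 12.2 and 46.1 kb from the gene in Gata2cKO, were shared, with −log10 q values of 5.28, 3.93 and 1.19 in Gata2cKO, against 3.50, 1.92 and 6.10 in Gata2WT.

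Vgll4 had 3 cKO-only peaks among 8 and 2 WT-only peaks among 7, all inside the gene. The strongest cKO-only peak, 114924957 to 114925309 on chromosome 6, had a −log10 q of 3.78. The strongest WT-only peak, 114921748 to 114922165, had 6.00 and lay 2.79 kb from it. The other 2 cKO-only peaks had 1.04 and 1.72, and the other WT-only peak had 1.37. Inside the gene lay 4 shared peaks, the strongest at 114901415 to 114902412 in Gata2cKO with 25.6, against 34.3 in Gata2WT. The shared peak at 114874506 to 114875524 in Gata2cKO had 18.2 in Gata2cKO and 34.0 in Gata2WT.

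Lats2 had 1 cKO-only peak among 7 and 2 WT-only peaks among 8. The cKO-only peak, inside the gene at 57714581 to 57714848 on chromosome 14, was weak (1.53) and was also given to Gm52140. The stronger WT-only peak, 57684560 to 57684892, lay 4.77 kb outside the gene with a −log10 q of 6.27, and the other, inside the gene, had 1.63. A strong shared peak inside Lats2, 57732525 to 57733133 in Gata2cKO, was also given to Gm52140. It had a pileup of 55 fragments in both lists and a −log10 q of 31.0 in Gata2cKO and 29.9 in Gata2WT. The inner annotated start of Lats2 met no peak in either list. Outside the gene, the shared peak at 57679785 to 57680225 in Gata2cKO had 15.6 in Gata2cKO and 6.37 in Gata2WT.

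Yap1 and Wwtr1 had few single-list peaks, none with a −log10 q of 5 or more. Yap1 had 7 peaks in each list, with 1 cKO-only peak 5.21 kb outside the gene, 7926089 to 7926792 (2.06), and 1 WT-only peak inside it, 7983660 to 7984089 (3.78). Wwtr1 had 2 Gata2cKO peaks, both shared, and 3 Gata2WT peaks, of which 1 inside the gene, 57554501 to 57554896, was WT-only (3.53). Wwtr1 had the fewest peaks per length, at 1.66 peaks in or at the gene per 100 kb in Gata2cKO and 2.49 in Gata2WT, against 7.04 and 8.79 at Tead1.

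The strongest peak of all 10 genes lay outside Tead4. At 128200146 to 128201290 on chromosome 6 in Gata2cKO, 25.9 kb from the gene, it had a −log10 q of 83.0 and a pileup of 118 fragments in Gata2cKO, against 97.9 and 139 in Gata2WT, with summits 35 bp apart. Tead4, a TEAD factor best known from the trophectoderm of the early embryo, had no cKO-only peak and 1 weak WT-only peak (1.37). On its other side, the shared peak at 128308120 to 128308604 in Gata2cKO had 1.55 and 8 fragments in Gata2cKO, against 13.3 and 24 in Gata2WT. Lats1, Tead2 and Tead3 had shared peaks alone. The strongest shared peak of Tead3 inside the gene, 28341134 to 28341596 in Gata2cKO, had 12.4 in Gata2cKO and 6.96 in Gata2WT.

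**Figure D5:**
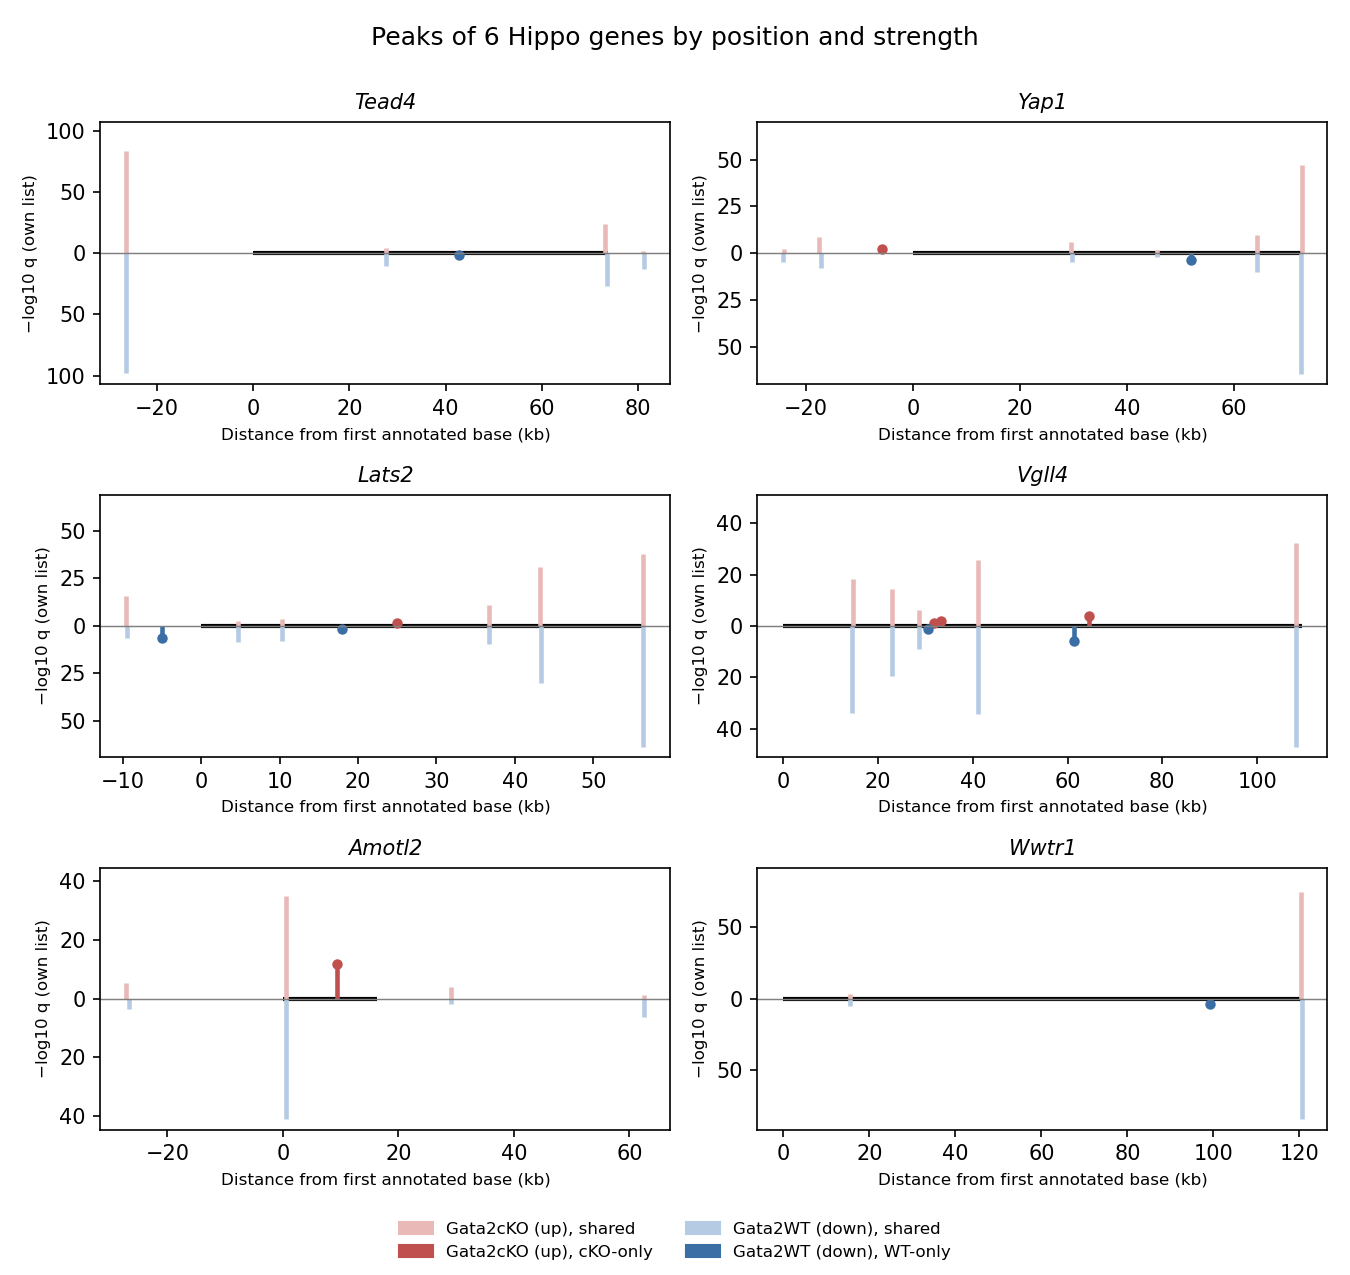
Peaks of Tead4, Yap1, Lats2, Vgll4, Amotl2 and Wwtr1 by distance of their summit from the first annotated base (kb) and −log10 q within their own list, Gata2cKO above and Gata2WT below the line; black bars are the genes and dots mark single-list peaks. The first base is the lowest coordinate. Yap1, Lats2, Vgll4 and Wwtr1 are on the minus strand, so their annotated starts lie towards the right end of the bar. No start of Tead4 was matched. Among these genes, the peaks with a −log10 q of 10 or more were shared except for the cKO-only peak of Amotl2, at 11.7.

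The summits of shared peaks were compared between the lists. The median distance between matched summits was 53.5 bp over 46 shared Gata2cKO peaks, where it was 46 bp over all shared Gata2cKO peaks. Of the 46, 31 lay within 100 bp, where 71.3% of all shared Gata2cKO peaks did. The widest distance among the 46 was the 786 bp at the Tead1 gene end. From the Gata2WT side, the weaker Tead3 gene-end peak had its summit 863 bp from that of its Gata2cKO partner. Shared peaks had a median pileup of 23 fragments in Gata2cKO and 25 in Gata2WT, while cKO-only peaks had 11 and WT-only peaks 13.5. Over the whole lists, shared peaks had 24 in Gata2cKO and 27 in Gata2WT, and cKO-only and WT-only peaks had 11 each.

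Of 32 other genes of the pathway, 26 carried gene-end peaks in both genotypes, 3 in Gata2cKO alone and 2 in Gata2WT alone. Over all 21631 protein-coding genes the shares were 62.8%, 1.3% and 2.29%. Amotl1, a relative of Amotl2, and Ankrd1, a target, had one in Gata2cKO alone, with a −log10 q of 3.54 and 2.88. Taok2, an upstream kinase gene, also had one in Gata2cKO alone (80.1), but that peak overlapped a Gata2WT peak that stopped short of the 1 kb window. Vgll1, a TEAD cofactor, and Fgf1, counted among the targets, had one in Gata2WT alone, with 2.62 and 1.37, and Tgfb2 had none in either. Taken over all their peaks, 36 of 119 Gata2cKO peaks were cKO-only (30.3%) and 44 of 128 Gata2WT peaks were WT-only (34.4%), where 19.7% and 28.5% of all peaks were. Most of these lay in the upstream and kinase part, with 31 of 90 Gata2cKO peaks and 35 of 95 Gata2WT peaks.

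Genes of this upstream part with at least 3 single-list peaks in a list were Map4k4, Wwc2, Fat4, Ptpn14, Wwc1 and Frmd6. Map4k4, a kinase that can activate LATS kinases, had 9 cKO-only peaks among 16 and 5 WT-only peaks among 12. Wwc2, of the KIBRA family of scaffolds, had 5 among 13 and 7 among 15. Fat4, a giant cadherin, had 3 cKO-only and 1 WT-only peak, and Ptpn14, a phosphatase that binds YAP1, had 3 and 2. Wwc1 and Frmd6 each had 1 cKO-only and 3 WT-only peaks. Among target genes, Fgf1 had 0 cKO-only and 5 WT-only peaks. The kinase genes Stk3 and Stk4, whose products phosphorylate LATS kinases, had 0 and 1 cKO-only peaks and 2 each that were WT-only. Ccn2, a classic YAP target, had 3 peaks in each list, all shared, with a gene-end −log10 q of 45.9 in Gata2cKO and 38.7 in Gata2WT. Ccn1, another, had a gene-end peak with 2.71 in Gata2cKO and 13.9 in Gata2WT.

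Markers of other cells were counted in the same way. Supporting and stromal markers had 3 of 31 Gata2cKO peaks cKO-only (9.68%, where 19.7% of all were) and 15 of 42 Gata2WT peaks WT-only (35.7%, where 28.5% of all were), with gene-end −log10 q values from 10.7 to 21.5 in Gata2cKO and from 2.71 to 31.3 in Gata2WT where there was a gene-end peak. Endothelial markers had 2 of 18 Gata2cKO peaks cKO-only and 5 of 20 Gata2WT peaks WT-only. Macrophage markers had 2 of 3 and 0 of 1, and erythroid markers 1 of 4 and 0 of 2. The part of these cells in the counts at the Hippo genes was not tested.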

How the data were processed

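The files were 1 narrow peak list per genotype. The submitters' processing notes name MACS2 2.2.6, the peak caller, beside Picard 2.23.0, bedtools 2.29.2, SAMtools, Bowtie2 2.3.5.1 and Trimmomatic 0.39, and the build GRCm38 (mm10); parameters, the Tn5 read shift and the way replicates were combined are not given there. The deposited fold enrichment is the ratio of summit pileup to local background, each with 1 added. The deposited −log10 p and q refer to that pileup, the smallest −log10 p being 3.00, and the deposited score restates it, times 10, without decimals.

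Rows with the same interval were merged to the strongest summit, on the 19 autosomes and X, with Python 3.11.15 and pandas 2.3.3. Pileup and background were solved from fold enrichment and −log10 p, and came out whole (within 0.001) for 99.995% of Gata2cKO and 99.996% of Gata2WT peaks. An overlap of 1 bp counted as shared. Genes were RefSeq genes of the same build. The steps were tested on simulated data. Members and gene lists were chosen with earlier results of these data known. Every listed gene is described, with its gene-end peaks, its strongest shared and single-list peaks and every single-list peak with a −log10 q of at least 5; other pathway genes are named where their gene-end status differs or at least 3 peaks are single-list, and Stk3, Stk4, Ccn1, Ccn2 and Tgfb2 were added after their values were seen. Read depth per sample was not analysed here.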

Additional observations from a re-analysis of the deposited data

How the results depend on the processing

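Leaving out a replicate was not possible, since the lists are combined. No paired analysis was possible because the lists hold no values per replicate. The 11 cKO-only peaks of the 10 genes became 19 when summits within 250 bp counted as shared, 7 with a −log10 q of at least 2 in both lists and 1 with at least 5 in the list counted; the 20 WT-only peaks became 6 with at least 5. With a gene window of 0 kb, 1 gene, Tead3, had a gene-end peak in Gata2cKO alone, since its strongest Gata2WT peak starts 0.09 kb beyond the gene. Under the other alternatives run these counts stayed within 1.5 times. Of 220 counts of single genes under 11 alternatives, 38 moved by more than that: 10 with the summit rule, 10 with a −log10 q of at least 5, 9 with at least 2 and 9 under the others; most are counts of 0 to 3. Tead1 had 0 to 7 cKO-only and 4 to 15 WT-only peaks over all settings, with more WT-only than cKO-only peaks in each of the 12 (5 and 11 with equal list lengths). At Vgll4 the cKO-only and WT-only counts were 3 and 2, but 1 each with a −log10 q of at least 2 and 0 and 1 with at least 5. What depth limits was not analysed here. Motif counts in the 250 bases before the start were 7 of 12 windows for GGAATG, against 8 in the full windows, and 0 for GATAA in both.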

Other observations

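The promoter windows of other pathway genes also held the TEAD core word, GGAATG or CATTCC. Of the 26 other Hippo genes matched in the RefSeq promoter table, 11 held it in at least 1 window (42.3%), against 16.5% of all 26794 genes in the table on the autosomes and X. They were Ajuba, Mob1a, Ptpn14, Sav1 and Wwc2 of the upstream part, the cofactors Vgll1 and Vgll3, and the targets Ankrd1, Axl, Ccn1 and Crim1. The GATA core word, searched as GATAA or TTATC alone, stood in windows of 5 of the 26 genes (19.2%), against 28.5% of all genes. Among genes that had a window with a peak in both lists, the TEAD word stood in 9 of 23 of these Hippo genes (39.1%), against 12.1% of the 12140 such genes, and the GATA word in 3 of 23 (13.0%), against 14.9%. Several of these genes are listed as targets because TEAD factors are known to act on them, so the count among targets is not independent of the word.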
